A study of Mus musculus with 60 samples.

Results

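The CCAAT/enhancer-binding proteins (C/EBPs) were followed through adipocyte differentiation in C3H10T1/2 cells, a mouse mesenchymal line that can form adipocytes. The 4 members, Cebpa, Cebpb, Cebpd and Cebpg, were taken by gene symbol from 24982 genes in each of 2 tables, and all 4 passed the filter on low values in both tables. One table covers wild-type (WT) and Tet1-KO populations, the latter a knockout of TET1, the 5-methylcytosine dioxygenase, with neither its allele nor its number of clones stated. The other covers 3 populations whose names, 23-NC, 23-Tet1 and 23-CATA, are not explained by the submitters. The titles of all 12 23-Tet1 samples give that name, while the genotype label of 11 of them reads otherwise (its last number counts upward), and the titles were followed. All 5 populations came from the same line and received the same induction, per the labels' protocols: a differentiation medium for 48 h with dexamethasone at 1 µM, isobutylmethylxanthine at 0.5 mM, insulin at 10 µg/ml, rosiglitazone at 1 µM and T3 at 1 nM, followed from day 2 by insulin alone at 5 µg/ml. RNA was sequenced on days 0, 2, 4 and 6 with 3 libraries in each of 20 groups, 60 in all. Nothing in the labels says that replicates were separate cultures, so p-values measure the spread between these libraries, which may be technical.

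C/EBPs are basic leucine zipper (bZIP) transcription factors that bind DNA as dimers with one another. In the textbook order of adipogenesis, C/EBP beta and C/EBP delta are induced early by cAMP and glucocorticoid signals, and they activate the genes of C/EBP alpha and PPAR gamma, which then sustain each other and the adipocyte program. C/EBP gamma lacks an activation domain of its own and pairs with other bZIP proteins, among them ATF4 of the amino acid response. The 2 further genes of the family, Cebpe (a factor of granulocytes) and Ddit3 (CHOP, a stress-induced C/EBP that blocks its partners' binding to the usual site), are described after the members.

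The genes lie apart in the genome except for one pair. In GENCODE M21 (GRCm38, the same assembly as mm10), Cebpa lies at chr7:35119293-35121928 on the plus strand and Cebpg at chr7:35046422-35056573 on the minus strand, so that 62719 bases lie between their divergent starts. Cebpb lies at chr2:167688915-167690418 and Cebpd at chr16:15887286-15891031, both on the plus strand. Cebpb has 1 annotated transcript with 1 exon of 1504 bases. The opposite strand carries Tmem189, which shares 312 exonic bases with Cebpb, and Spidr, which shares 562 with Cebpd. The authors' counting is not stated to use strand, so reads in those bases cannot be assigned with certainty. The 250 bases before the start of Cebpa, Cebpb and Cebpg are shown because TET1 acts on methylated CpG and because these genes moved in different ways below. They are from RefSeq (GRCm38.p6), written 5′ to 3′ on the gene's strand. Cebpd is not shown because the promoter sequences used held no entry for it. Capitals mark the C/EBP half-site TTGCG, the cAMP response element half-site TGACG and the CCAAT box, each searched on both strands, so that they also appear as CGTCA and ATTGG.
Cebpa, chr7:35119043-35119292, plus strand: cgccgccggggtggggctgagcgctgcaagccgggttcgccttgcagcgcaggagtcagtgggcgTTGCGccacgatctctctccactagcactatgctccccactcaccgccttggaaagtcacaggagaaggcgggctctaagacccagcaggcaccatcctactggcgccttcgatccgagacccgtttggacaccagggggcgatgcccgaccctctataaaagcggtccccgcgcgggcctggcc
Cebpb, chr2:167688665-167688914, plus strand: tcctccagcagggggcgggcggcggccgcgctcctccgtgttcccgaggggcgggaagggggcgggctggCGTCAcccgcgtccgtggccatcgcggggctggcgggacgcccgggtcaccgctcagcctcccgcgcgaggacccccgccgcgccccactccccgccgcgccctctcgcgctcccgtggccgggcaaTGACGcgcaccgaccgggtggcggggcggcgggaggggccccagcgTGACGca
Cebpg, chr7:35056567-35056816, minus strand: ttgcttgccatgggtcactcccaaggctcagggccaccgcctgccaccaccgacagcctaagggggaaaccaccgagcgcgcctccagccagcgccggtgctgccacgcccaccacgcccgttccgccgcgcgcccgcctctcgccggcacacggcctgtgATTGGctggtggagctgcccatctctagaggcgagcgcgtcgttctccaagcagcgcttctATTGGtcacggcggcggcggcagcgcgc
Cebpa holds 1 C/EBP half-site, 185 to 181 bases before the start, and 14.5% of the 32851 promoter windows of this length hold one. Cebpb holds 3 cAMP response element half-sites, the nearest 7 to 3 bases before the start, against 17.8% of windows with any. Cebpg holds 2 CCAAT boxes, against 33.8% of windows with any. The windows hold 22 CpG dinucleotides (Cebpa), 41 (Cebpb) and 29 (Cebpg), where the median window holds 6. These matches describe letters in a short window, and methylation was not measured in these files.

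An estimate of depth came from 3209 genes with 1 transcript, whose low values step by what 1 fragment is worth (mean fragment assumed to be 200 bases). It gave about 11300000 to 18300000 fragments for all libraries but one. Tet1-KO day 6 replicate 2 stood apart, at about 7150000 fragments, 11805 genes above 0 (13837 to 14954 elsewhere in that table), Rpl41 at 64292 FPKM (2766 to 19440) and Gapdh at 84.5 FPKM (928 to 9275). Results resting on it are given with and without it. The lowest member value, 3.54 FPKM for Cebpa in 23-Tet1 day 0 replicate 1, stood for about 139 fragments. Tet1 itself was at 0.88 to 1.12 FPKM in WT and 0.24 to 0.26 FPKM in Tet1-KO at day 0, and it did not pass 0.12 FPKM in any WT or Tet1-KO library after day 0. It was at most 0.12 FPKM in 23-NC, 4.04 to 7.46 FPKM in 23-Tet1 and 5.75 to 21.6 FPKM in 23-CATA. Checked against the label of a mesenchymal line, all 10 mesenchymal markers reached 1 FPKM in both tables, 9 of 10 adipocyte markers did so, and of the 8 macrophage markers 2 did. Among the macrophage markers Cd68 was highest, at up to 46.0 and 132 FPKM. Of 6 muscle and cartilage markers 3 did so in each table, with Col2a1 up to 119 FPKM in the first and Sox9 up to 114 FPKM in the second. Of 5 endothelial markers 1 and 2 did (up to 1.86 and 2 FPKM), and of 5 epithelial markers 1 and 3 (up to 1.8 and 9.92 FPKM). In bulk RNA, fewer cells of a type and less RNA per cell cannot be told apart.

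In WT cells Cebpa, Cebpb and Cebpg rose together in the first interval, and Cebpd fell in the second. Cebpa measured 19.9, 22.4 and 22.5 FPKM at day 0 and 301, 370 and 314 FPKM at day 2. Its groups did not overlap, and the rise was 4.25 ± 0.62 (SE) log2 units (limma, adjusted p = 2.5e-05). Here and below, a change is a difference in log2(FPKM + 1) after the median change of all genes tested is taken off. The p belongs to the fitted change, before that median is taken off, so it need not follow the printed change over its SE. The adjusted p is Benjamini-Hochberg over all genes tested, and a gene is called where it is under 0.05. Cebpa then stayed between 283 and 363 FPKM through days 4 and 6, with no further call. Cebpb, at 38.6, 47.5 and 52.7 FPKM before induction, stood at 326, 310 and 253 FPKM on day 2, a rise of 3.05 ± 0.38 (limma adjusted p = 7.57e-06). It was lower in each later group, at 161 to 240 FPKM on day 4 and 103 to 139 FPKM on day 6, and these groups did not overlap. The step to day 4 (-0.50) did not pass in the fit of all groups (limma adjusted p = 0.329). With only these groups it passed without a replicate block (limma adjusted p = 0.0125). Same-numbered libraries of those days deviated together, and with the replicate block added to these groups it passed as well (limma adjusted p = 0.00717). Without Tet1-KO day 6 replicate 2, whose spread enters the shared estimate, the steps to day 4 (limma adjusted p = 0.0487) and to day 6 (-0.96, limma adjusted p = 0.0151 against 0.181) both passed.

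Cebpd, by contrast, was already high in WT cells at day 0, at 152 to 165 FPKM, and its day 2 libraries (111, 162 and 173 FPKM) overlapped that range. It fell to 44.9, 47.3 and 57.3 FPKM at day 4, a fall of 1.44 ± 0.36 (-1.44, limma adjusted p = 0.00618), and lay at 75.4 to 79.6 FPKM at day 6, above the day 4 libraries. That last step (0.42 ± 0.36, limma adjusted p = 0.219) passed with the compared groups alone (0.00186) and with library weights (0.0016). Cebpg rose from 28.5 to 30.7 FPKM at day 0 to 45.5 to 47.6 FPKM at day 2, by 1.04 ± 0.17 relative to the median gene (limma adjusted p = 0.00304) and by 0.64 as fitted. Its later groups lay between 37.7 and 54.7 FPKM. The step to day 4 (-0.13) passed with only those groups (limma adjusted p = 0.0181 against 0.418) and with the replicate block added to them (0.0291). The members called were 3 of 4 from day 0 to day 2, where 62.1% of all genes tested were called, and 1 of 4 from day 2 to day 4, where 17.4% were. From day 4 to day 6 limma called 0 of 4 members, 0 also at an unadjusted p under 0.05, against 21.4% of genes.

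**Figure D1:**
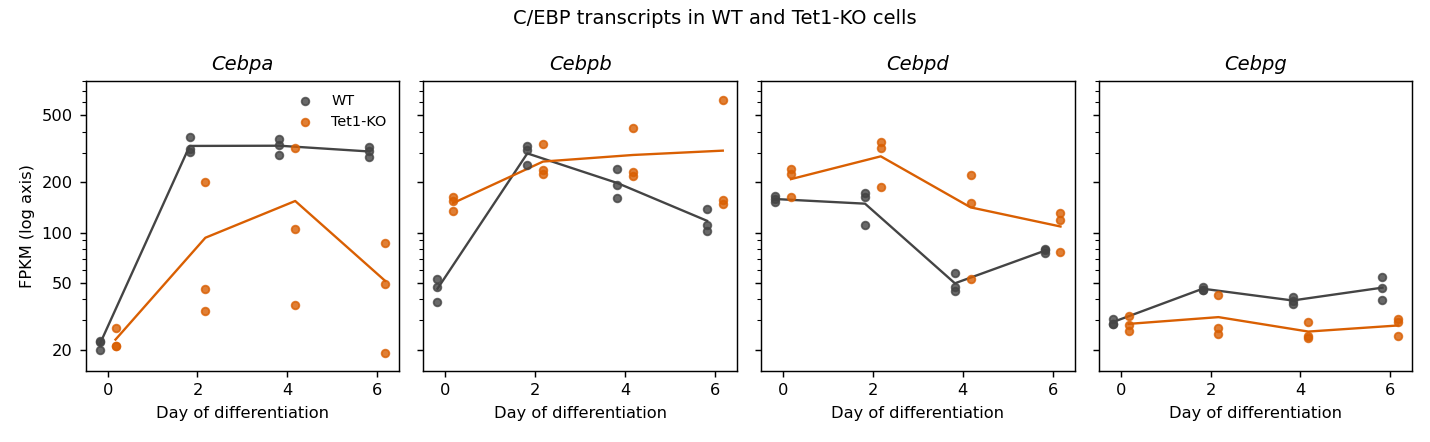
FPKM of each C/EBP gene by day in WT (grey) and Tet1-KO (orange) cells on a log axis, where each point is a library and each line joins the means of 3 libraries. WT Cebpa sits between 283 and 370 FPKM from day 2, while the Tet1-KO libraries scatter from 19.1 to 320 FPKM.

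Tet1-KO cells started with Cebpa at the WT level and did not bring it to the WT level at days 2 and 6. At day 0 the knockout libraries held 21.0, 21.2 and 26.9 FPKM, overlapping WT, and the difference was 0.17 ± 0.62 (limma adjusted p = 0.95). At day 2 they held 46.4, 199 and 33.9 FPKM, all below the lowest WT library, and Cebpa was lower than in WT (-2.41 log2 units ± 0.62, limma adjusted p = 0.0142). Replicate 2 was the high library on that day and again on day 4, where the knockout libraries held 105, 320 and 37.0 FPKM and overlapped WT (-1.68 ± 0.62, limma adjusted p = 0.0835). At day 6 they held 86.2, 19.1 and 49.5 FPKM against 283 to 326 FPKM in WT (-2.58 ± 0.62, limma adjusted p = 0.00149).

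The knockout library with the most Cebpa on days 2 and 4 also had the most adipocyte marker RNA and the least mesenchymal marker RNA of its group. The summed FPKM of 10 adipocyte markers at day 2 was 8500, 49319 and 10910 in replicates 1 to 3, and at day 4 it was 41832, 88755 and 24136. The sum of 10 mesenchymal markers was 5018, 2300 and 4119 in the day 2 libraries and 3926, 1406 and 6386 in those of day 4. Day 6 did not follow this pattern. There replicate 2, the library that stands apart, had the least Cebpa of its group (19.1 FPKM). Its adipocyte sum was the highest (34232 against 31704 and 29876) and its mesenchymal sum the lowest (3051 against 6176 and 6353). Fabp4 had the highest value of the adipocyte markers in both tables (up to 97236 and 62607 FPKM), so it weighs heavily in such sums. All 10 adipocyte markers are also in the list of C/EBP alpha targets described below. The part of cell make-up in the Cebpa difference was not tested. Cebpa at day 4 passed when replicate 2 of that group was left out (-2.49, limma adjusted p = 0.00495) and when Tet1-KO day 6 replicate 2 was (-1.68, limma adjusted p = 0.0397). Cebpa at day 2 no longer passed without WT day 2 replicate 2 (limma adjusted p = 0.0542) or without Tet1-KO day 2 replicate 1 or 3 (0.0882 and 0.0896), while its day 6 call held in each fit with 1 library left out.

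Cebpb went the other way before induction. Tet1-KO cells held 154, 162 and 134 FPKM at day 0 against 38.6 to 52.7 FPKM in WT, a difference of 1.77 ± 0.38 (limma adjusted p = 0.00546) with groups well apart. The populations met at day 2, where knockout libraries of 223 to 337 FPKM overlapped WT (-0.34 ± 0.38, limma adjusted p = 0.777). At day 4 the difference was 0.41 ± 0.38 (limma adjusted p = 0.403). At day 6 the knockout held 156, 620 and 148 FPKM against 103 to 139 FPKM in WT and was called higher (1.25 ± 0.38, limma adjusted p = 0.031). That call rested on the library that stands apart: without it the difference was 0.38 (limma adjusted p = 0.223), and it also ended without WT day 6 replicate 1 or 3 (0.0754 and 0.0918). In that library Tmem189, the gene on the other strand, was at 11.6 FPKM against 36.3 and 56.9 FPKM in the other knockout libraries of the day.

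In the knockout Cebpd was called higher on day 4 and Cebpg lower from day 2 on. Cebpd was at 223, 238 and 164 FPKM at day 0 and at 320, 186 and 347 FPKM at day 2, above every WT library of day 2, yet neither difference passed (0.46 ± 0.36 and 0.74 ± 0.36, limma adjusted p = 0.519 and 0.0751). The day 2 difference passed without Tet1-KO day 2 replicate 2 (0.96, limma adjusted p = 0.0256) and without Tet1-KO day 6 replicate 2 (0.0435). At day 4 Cebpd was called higher, by 1.18 ± 0.36 (limma adjusted p = 0.0226), although replicate 2, at 52.7 FPKM beside 150 and 221 FPKM, lay within the WT range. That call ended when WT day 4 replicate 2 or 3 was left out (0.0843 and 0.0713), as it did for Tet1-KO replicate 1 or 3 of the same day (0.116 and 0.191). At day 6 the difference was 0.63 ± 0.36 (limma adjusted p = 0.334).

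Cebpg was level between the populations at day 0, at 25.8 to 31.8 FPKM in the knockout (0.05 ± 0.17, limma adjusted p = 0.908). It was lower than in WT at day 2 (27.0, 42.2 and 24.8 FPKM, -0.75 ± 0.17, limma adjusted p = 0.0199), at day 4 (23.6 to 29.2 FPKM, -0.69 ± 0.17, limma adjusted p = 0.0228) and at day 6 (24.2 to 30.4 FPKM, -0.53 ± 0.17, limma adjusted p = 0.00243), with no overlap of groups on any of these days. The day 2 call ended without any 1 of the 3 WT day 2 libraries (0.0551 to 0.0587) or without Tet1-KO day 2 replicate 1 or 3 (0.115 and 0.119), and the day 4 call without any 1 of the 3 WT day 4 libraries (0.0543 to 0.0765) or Tet1-KO day 4 replicate 1 or 3 (0.107 and 0.109). The day 6 call held in each fit with 1 library left out. With the compared groups alone, the calls of Cebpb at day 6 (0.255), Cebpd at day 4 (0.124) and Cebpg at days 2 and 6 (0.0608 and 0.106) did not pass, nor did that of Cebpb with library weights (0.0518). Against WT, 1 of 4 members was called at day 0, 2 at day 2, 2 at day 4 and 3 at day 6. The shares of all genes tested that were called on those days were 16.8%, 22.9%, 16% and 45.4%.

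Within Tet1-KO few day steps of the members passed the test. Limma called 0 of 4 from day 0 to day 2 (1, Cebpa, at an unadjusted p under 0.05) against 22.5% of genes, 1 from day 2 to day 4 against 14.3%, and 0 from day 4 to day 6 (1, Cebpa, unadjusted) against 12%. Cebpa was higher at day 2 than at day 0 in 3 of 3 libraries but with a wide spread (1.64 ± 0.62, limma adjusted p = 0.0804, or 0.0406 without Tet1-KO day 6 replicate 2 and 0.0357 without Tet1-KO day 2 replicate 3). Cebpb rose by 0.90 without Tet1-KO day 6 replicate 2 (limma adjusted p = 0.00939 against 0.142 with it). From day 4 to day 6 Cebpb passed without Tet1-KO day 6 replicate 2 (-0.98, limma adjusted p = 0.0416 against 0.752), and Cebpa without Tet1-KO day 4 replicate 3 (-2.05, 0.0251 against 0.148). The called change was Cebpd from day 2 to day 4 (-0.98 ± 0.36, limma adjusted p = 0.0347). With only these groups Cebpd did not pass (limma adjusted p = 0.236). Same-numbered libraries of those days deviated together, and with the replicate block added to these groups Cebpd did not pass either (limma adjusted p = 0.0525). With no filter or median-ratio scaling it missed the threshold as well (0.0563 and 0.0584). It did not pass either without replicate 1 or 3 of day 2 (0.147 and 0.14) or replicate 1 or 2 of day 4 (0.0538 and 0.198).

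The difference between the populations in their change since day 0 was tested as an interaction. The change to day 2 was smaller in Tet1-KO than in WT for Cebpb, by 2.15 log2 units (-2.15 ± 0.54, limma adjusted p = 0.0202), which was the 1 member called where 21.9% of genes were. Without Tet1-KO day 0 replicate 2 or day 2 replicate 1 it did not pass (0.0509 and 0.0564). For Cebpa the same interaction was -2.62 ± 0.87 (limma adjusted p = 0.0608), and it passed without Tet1-KO day 2 replicate 2 (-3.46, 0.00745) or day 6 replicate 2 (0.0281). To day 6 it was called for Cebpa (-2.76 ± 0.87, limma adjusted p = 0.0291), the 1 member of 4 against 17.8% of genes. That call ended without any 1 WT or Tet1-KO day 0 library other than Tet1-KO replicate 2 (0.0501 to 0.059), without WT day 6 replicate 2 or 3 (0.0626 and 0.0545), and without Tet1-KO day 6 replicate 2 (-2.36, 0.0575). Leaving out Tet1-KO day 6 replicate 2 brought in Cebpb (-1.38, 0.0091 against 0.433). For Cebpg the interaction to day 2 (-0.84 ± 0.24, limma adjusted p = 0.109) passed without Tet1-KO day 2 replicate 2 (-1.14, 0.00991), and that to day 6 (-0.59 ± 0.24, 0.0569) without WT day 6 replicate 3 (0.0459), or with replicate 1 (0.0365) or 3 (0.0468) of Tet1-KO day 6 left out.

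In the second table the libraries of a group lay closer together, except for Cebpb. The SD within groups on the log2 scale was 0.10 for Cebpa, 0.16 for Cebpd and 0.08 for Cebpg, and 0.56 for Cebpb, above that of 99.6% of the 12231 genes. In WT and Tet1-KO libraries the SD was 0.83 for Cebpa (97.9%), 0.50 for Cebpb (84.3%), 0.47 for Cebpd and 0.19 for Cebpg.

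In 23-NC cells Cebpa rose at both of the first steps and fell at the last. It went from 11.4, 11.4 and 12.9 FPKM at day 0 to 44.3 to 50.7 FPKM at day 2 (1.96 ± 0.08, limma adjusted p = 4.7e-18) and 169 to 177 FPKM at day 4 (1.90 ± 0.08, limma adjusted p = 1.24e-17). By day 6 it was at 38.1, 38.5 and 45.2 FPKM (-2.08 ± 0.08, limma adjusted p = 1.7e-18), where the day 2 libraries had held 44.3 to 50.7 FPKM. The summed adipocyte markers moved alongside, from 20521 to 27762 FPKM at day 4 to 11065 to 12496 FPKM at day 6, and the mesenchymal sum went from 1773 to 2107 FPKM up to 4967 to 5035 FPKM, and the part of cell make-up was not tested. Cebpb rose from 35.9 to 62.1 FPKM at day 0 to 92.2 to 157 FPKM at day 2 (1.39 ± 0.42, limma adjusted p = 0.00814) and was still at 123 to 203 FPKM on day 6. Cebpd held 129 to 187 FPKM at day 0, 123 to 132 FPKM at day 2 and 102 to 142 FPKM at day 4, and it fell at the last step to 80.4 to 96.2 FPKM (-0.43 ± 0.12, limma adjusted p = 0.00337, or 0.0568 without 23-NC day 4 replicate 3). The earlier steps of Cebpd passed with quantile normalisation (0.019 and 0.0114) or with 1 library left out: to day 2 without 23-NC day 0 replicate 3 (-0.24, 0.0425 against 0.136) and to day 4 without 23-NC day 4 replicate 3 (-0.27, 0.038 against 0.303). Cebpg rose from 22.2 to 22.9 FPKM at day 2 to 28.4 to 29.3 FPKM at day 4 (0.38 ± 0.07, limma adjusted p = 5.03e-05). Each step called 2 of 4 members, where 59.5%, 54.3% and 60.6% of all genes tested were called.

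In 23-Tet1 cells Cebpa climbed at every step and had not fallen by day 6. It was at 3.54, 4.42 and 4.50 FPKM at day 0, 13.2 to 14.9 FPKM at day 2, 67.9 to 85.2 FPKM at day 4 and 148 to 152 FPKM at day 6, and the steps were 1.62, 2.39 and 0.97 (each ± 0.08, limma adjusted p = 2.28e-16, 4.83e-20 and 6.34e-11). Cebpd started low, at 30.7, 36.8 and 38.1 FPKM, rose to 148 to 182 FPKM at day 2 (2.19 ± 0.12, limma adjusted p = 8.54e-16) and fell at both later steps (-0.54 and -0.93) to 53.0 to 55.6 FPKM. Cebpb rose from 21.98 to 26.5 FPKM to 31.3, 56.2 and 112 FPKM at day 2 (1.28 ± 0.42, limma adjusted p = 0.0117), a call that ended without the library at 112 FPKM, replicate 2 (0.132). Without that library the next step of Cebpb passed instead (1.45, 0.00961 against 0.0662). Cebpg fell from 30.04 to 31.62 FPKM at day 0 to 19.4 to 23.9 FPKM at day 2 (-0.49 ± 0.07, limma adjusted p = 3.39e-08) and rose by 0.23 and 0.24 at the later steps. The rise to day 4 did not pass without 23-Tet1 day 2 replicate 2 or 3 (0.0995 and 0.0614) or day 4 replicate 2 (0.115) or with the compared groups alone (0.124), nor the rise to day 6 without day 4 replicate 1 (0.0881). The calls were 4, 3 and 3 of 4 members in turn, against 64.4%, 48.4% and 56.9% of genes.

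In 23-CATA cells Cebpa was above the other 2 populations before induction and rose at the first 2 steps. It was at 47.1 to 50.6 FPKM at day 0, 239, 255 and 287 FPKM at day 2 (2.54 ± 0.08, limma adjusted p = 7.65e-21) and 306 to 352 FPKM at day 4 (0.48 ± 0.08, limma adjusted p = 0.000908), and its day 6 libraries of 295 to 308 FPKM overlapped day 4. The step to day 4 was 0.08 after quantile normalisation (limma adjusted p = 0.622). Cebpd fell at every step, from 169 to 186 FPKM at day 0 through 117 to 126 and 41.9 to 51.8 FPKM to 30.9, 31.6 and 32.1 FPKM at day 6, with steps of -0.41, -1.25 and -0.62 (each ± 0.12). Cebpb was highest at day 4, mainly in 1 library: its values were 169, 122 and 468 FPKM there, against 74.2 to 98.9 FPKM at day 2 and 85.5 to 87.7 FPKM at day 6. The called rise (1.41 ± 0.42, limma adjusted p = 0.0104) and fall (-1.41 ± 0.42, limma adjusted p = 0.0155) ended without day 4 replicate 3 (0.83 and -0.83, limma adjusted p = 0.156 and 0.184), and the fall also with the compared groups alone (0.0505). Tmem189 was at 71.0 FPKM in that library and 68.0 and 64.6 FPKM in the other two. Cebpg stayed between 20.8 and 30.1 FPKM, falling at day 4 (-0.17 ± 0.07, limma adjusted p = 0.00013) and rising at day 6 (0.21 ± 0.07, limma adjusted p = 0.000246). The fall did not pass with median-ratio scaling (-0.13, limma adjusted p = 0.155). The calls were 2, 4 and 3 of 4 members, against 72.3%, 63.2% and 38.1% of genes.

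**Figure D2:**
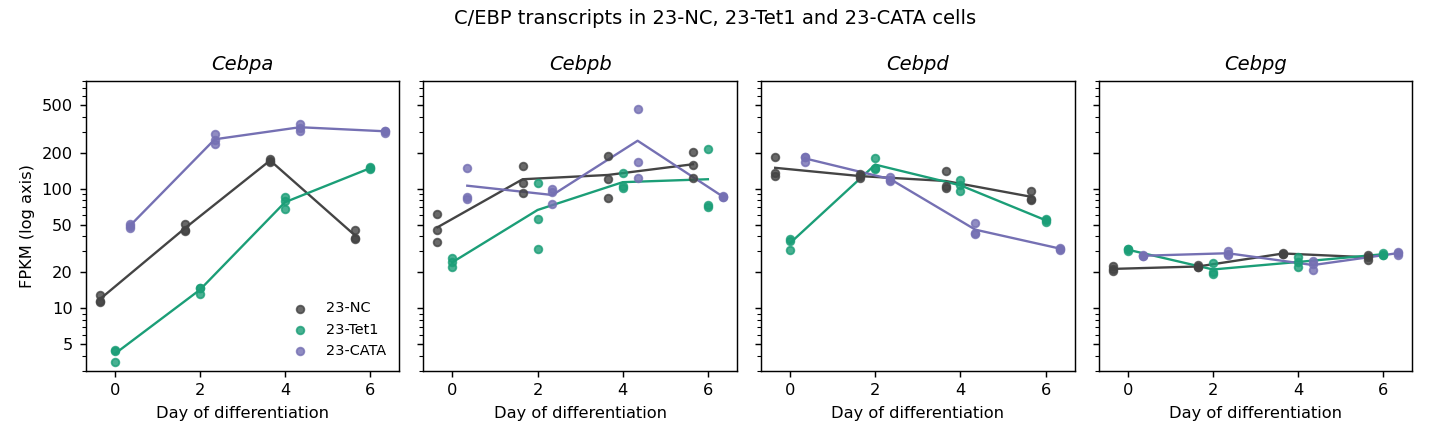
FPKM of each C/EBP gene by day in 23-NC (grey), 23-Tet1 (green) and 23-CATA (purple) cells on a log axis, where each point is a library and each line joins the means of 3 libraries. Cebpa is highest in 23-CATA on every day, and the 23-NC and 23-Tet1 lines cross between day 4 and day 6.

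Compared by day, Cebpa separated the 3 populations in every one of the 12 comparisons, with no overlap of libraries. It was higher in 23-CATA than in 23-NC by 1.84, 2.42, 1.00 and 2.86 log2 units at days 0, 2, 4 and 6 (each ± 0.08, limma adjusted p = 5.06e-18, 9.05e-21, 7.38e-11 and 1.21e-22). In 23-Tet1 it was lower than in 23-NC at days 0, 2 and 4 (-1.42, -1.74 and -1.24, each ± 0.08, limma adjusted p = 3.07e-14, 1.84e-16 and 8.67e-13) and higher at day 6 (1.81 ± 0.08, limma adjusted p = 1.13e-17). The gap between 23-CATA and 23-Tet1 was 3.27 at day 0, 4.15 at day 2, 2.24 at day 4 and 1.03 at day 6 (each ± 0.08). The order of mean levels was thus 23-CATA, 23-NC, 23-Tet1 through day 4 and 23-CATA, 23-Tet1, 23-NC at day 6. The comparisons with 23-NC share the 23-NC libraries, and so are not independent of each other. Each of the 12 calls kept its direction and passed in every alternative fit.

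Cebpd also differed between the populations. At day 0 it was lower in 23-Tet1 than in 23-NC (-2.14 ± 0.12, limma adjusted p = 6.85e-15), 30.7 to 38.1 FPKM against 129 to 187 FPKM, and 23-CATA (169 to 186 FPKM) overlapped 23-NC (0.17 ± 0.12, limma adjusted p = 0.0614, or 0.00225 without 23-NC day 0 replicate 1). At day 2 it was higher in 23-Tet1 (0.22 ± 0.12, limma adjusted p = 0.0255), a call lost without 23-NC day 2 replicate 2 (0.0774) or 23-Tet1 day 2 replicate 1 (0.162) and with median-ratio scaling (0.159). At days 4 and 6 Cebpd was lower in 23-CATA than in 23-NC (-1.24 and -1.43, each ± 0.12, limma adjusted p = 7.54e-11 and 1.17e-11). In 23-Tet1 it was lower at day 6 (-0.69 ± 0.12, limma adjusted p = 3.24e-05). Against 23-Tet1, 23-CATA cells held more Cebpd at day 0 (2.32 ± 0.12) and less at days 2, 4 and 6 (-0.34, -1.05 and -0.77, each ± 0.12, limma adjusted p = 0.00518, 3.19e-10 and 2.21e-06).

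Cebpb gave few calls between these populations, given its spread. At day 0 it was higher in 23-CATA (82.4, 86.2 and 150 FPKM) than in 23-NC (1.01 ± 0.42, limma adjusted p = 0.032) and than in 23-Tet1 (2.03 ± 0.42, limma adjusted p = 0.000113). The first of these did not pass without 23-NC day 0 replicate 1 or 2 (0.0566 and 0.121), without 23-CATA day 0 replicate 1 (0.161), with no filter (0.0541) or with median-ratio scaling (0.0606). At day 2 it was lower in 23-Tet1 than in 23-NC (-1.09 ± 0.42, limma adjusted p = 0.0397) with overlapping libraries, a call lost without 23-NC day 2 replicate 2 or 3 (0.151 and 0.0655) or 23-Tet1 day 2 replicate 1 or 3 (0.0824 and 0.283), and with no filter (0.0674) or the compared groups alone (0.0687). The day 6 libraries of 23-CATA, 85.5 to 87.7 FPKM, lay below those of 23-NC, but the difference did not pass (-0.88 ± 0.42, limma adjusted p = 0.0659). With the compared groups alone it did (0.0011). Other differences of Cebpb passed when a library was left out. For 23-Tet1 against 23-NC these were day 0 without 23-NC replicate 2 (-1.19, 0.0478 against 0.0612) and day 6 without 23-Tet1 replicate 1 (-1.16, 0.0249 against 0.223). For 23-CATA against 23-NC it was day 4 without 23-CATA replicate 2 (1.27, 0.0222) or 23-NC replicate 1 (1.17, 0.0422 against 0.102). For 23-CATA against 23-Tet1 it was day 2 without 23-Tet1 replicate 2 (1.12, 0.037 against 0.22) and day 4 without 23-CATA replicate 1 (1.24, 0.0433) or 2 (1.48, 0.0106 against 0.0523).

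Cebpg moved within a narrow band of 19.4 to 31.6 FPKM over all 36 libraries. At day 0 it was higher than in 23-NC (20.5 to 22.5 FPKM) both in 23-Tet1 (30.04 to 31.62 FPKM, 0.42 ± 0.07, limma adjusted p = 8.63e-08) and in 23-CATA (27.2 to 28.0 FPKM, 0.24 ± 0.07, limma adjusted p = 6.76e-05). At day 2 it was higher in 23-CATA than in 23-NC (0.33 ± 0.07, limma adjusted p = 2.85e-05) and than in 23-Tet1 (0.49 ± 0.07, limma adjusted p = 1.05e-06). At day 4 it was lower than in 23-NC in both 23-CATA (-0.23 ± 0.07, limma adjusted p = 0.000126) and 23-Tet1 (-0.32 ± 0.07, limma adjusted p = 0.00367, or 0.0511 without 23-Tet1 day 4 replicate 1). No difference in Cebpg was called at day 6 in the fit of all groups. The day 2 difference of 23-Tet1 from 23-NC (-0.18, 0.27) passed without 23-Tet1 day 2 replicate 1 (-0.25, 0.0274). The difference of 23-CATA from 23-Tet1 at day 0 (-0.17 ± 0.07, limma adjusted p = 0.0318) did not pass without 23-Tet1 replicate 1 or 3 or 23-CATA replicate 2 or 3 of that day (0.0654 to 0.0887).

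For 23-Tet1 against 23-NC, 3, 3, 2 and 2 of 4 members were called at days 0, 2, 4 and 6, against 61.3%, 63.9%, 56.9% and 65% of all genes tested. For 23-CATA against 23-NC the counts were 3, 2, 3 and 2, against 43.3%, 65%, 68.7% and 74.4%. For 23-CATA against 23-Tet1 they were 4, 3, 2 and 2, against 64.2%, 67.4%, 74.2% and 65.7%. More than 4 in 10 genes passed in each of these comparisons, so the size of a change carries more here than the fact of a call.

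**Figure D3:**
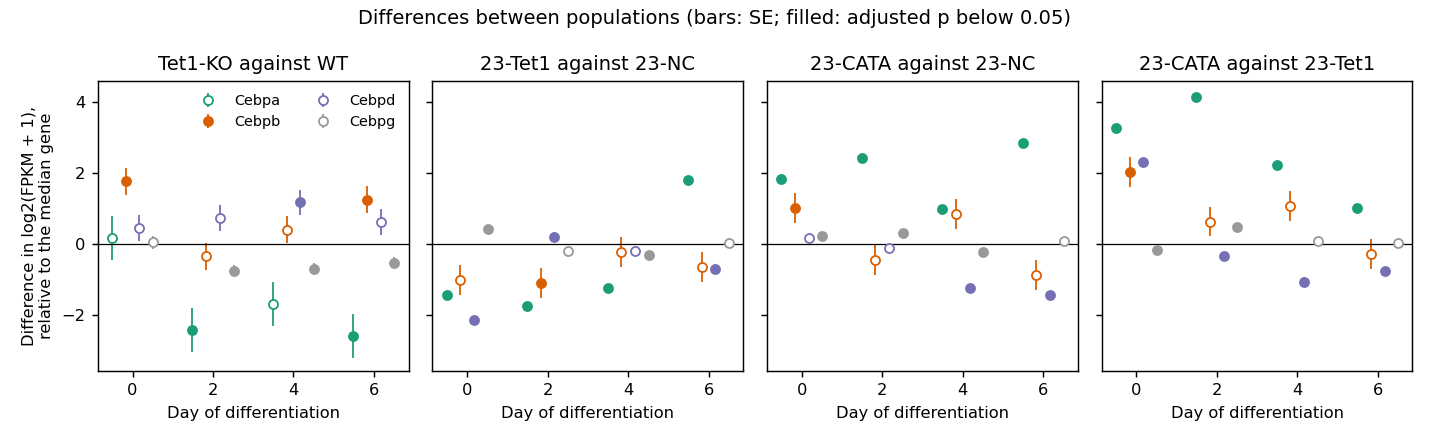
Difference of each C/EBP gene between 2 populations by day, in log2(FPKM + 1) relative to the median gene, with bars for the SE (hidden by the point where short) and filled points for calls at an adjusted p under 0.05. Cebpa runs from -2.58 in Tet1-KO against WT at day 6 to 4.15 in 23-CATA against 23-Tet1 at day 2.

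Interactions with 23-NC compared the changes since day 0 themselves. The change of Cebpa from day 0 to day 6 was larger than in 23-NC in 23-Tet1 (3.22 ± 0.12, limma adjusted p = 1.89e-19) and in 23-CATA (1.02 ± 0.12, limma adjusted p = 8.03e-08). The change of Cebpd to day 6 was more positive in 23-Tet1 (1.45 ± 0.17, limma adjusted p = 3.31e-08), which had started low, and more negative in 23-CATA (-1.60 ± 0.17, limma adjusted p = 9.43e-10). To day 2 the Cebpd interaction for 23-CATA (-0.28 ± 0.17, 0.0783) passed without 23-NC day 0 replicate 1 (-0.45, 0.0057). Cebpb changed less to day 6 in 23-CATA (-1.89 ± 0.60, limma adjusted p = 0.00488). For 23-Tet1, 3 of 4 members were called in the change to day 2 and 3 in the change to day 6, against 53.9% and 61.4% of genes. For 23-CATA the counts were 2 and 4, against 50.4% and 63.5%.

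The make-up of the family shifted with time, and FPKM, being per length, allows the members to be compared within a library. At WT day 0 the order was Cebpd, Cebpb, Cebpg and Cebpa, with no overlap between neighbours, and Cebpd made up 62.0% ± 2.76 (SD, n = 3) of the summed C/EBP FPKM. At WT day 2 Cebpa (40.0% ± 4.10) and Cebpb (36.1% ± 3.6) led with overlapping ranges. By WT day 6 Cebpa led with 55.7% ± 1.86, ahead of Cebpb with 21.4% ± 1.88, Cebpd with 14.3% ± 1.01 and Cebpg with 8.57% ± 0.90. In Tet1-KO at day 6 the order was Cebpb (38.6% to 83.8%), Cebpd (10.3% to 34.4%) and Cebpa (2.58% to 21.4%), and the ranges of Cebpd and Cebpa overlapped. Without replicate 2, which stands apart, Cebpb made up 38.6% and 42.8%, Cebpd 32.5% and 34.4%, and Cebpa 21.4% and 14.3%. The order was the same, and Cebpd and Cebpa no longer overlapped. The ratio of Cebpa to Cebpb FPKM at day 6 was 2.34 to 2.96 in WT libraries and 0.031 to 0.554 in Tet1-KO libraries (0.334 and 0.554 without replicate 2).

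In the second table the populations ended with different leading members. The share of Cebpa at day 6 was 67.4% ± 0.59 in 23-CATA, 43.7% ± 8.84 in 23-Tet1 and 13.1% ± 1.86 in 23-NC, where it had been 38.9% ± 4.45 at day 4. Cebpb took 50.7% ± 6.52 in 23-NC at day 6. The summed C/EBP FPKM was lowest in 23-Tet1 at day 0, at a mean of 94.6 FPKM, and there Cebpg, elsewhere 3.83% to 11.5% on average, made up 32.8% ± 1.99. Shares were given no test.

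**Figure D4:**
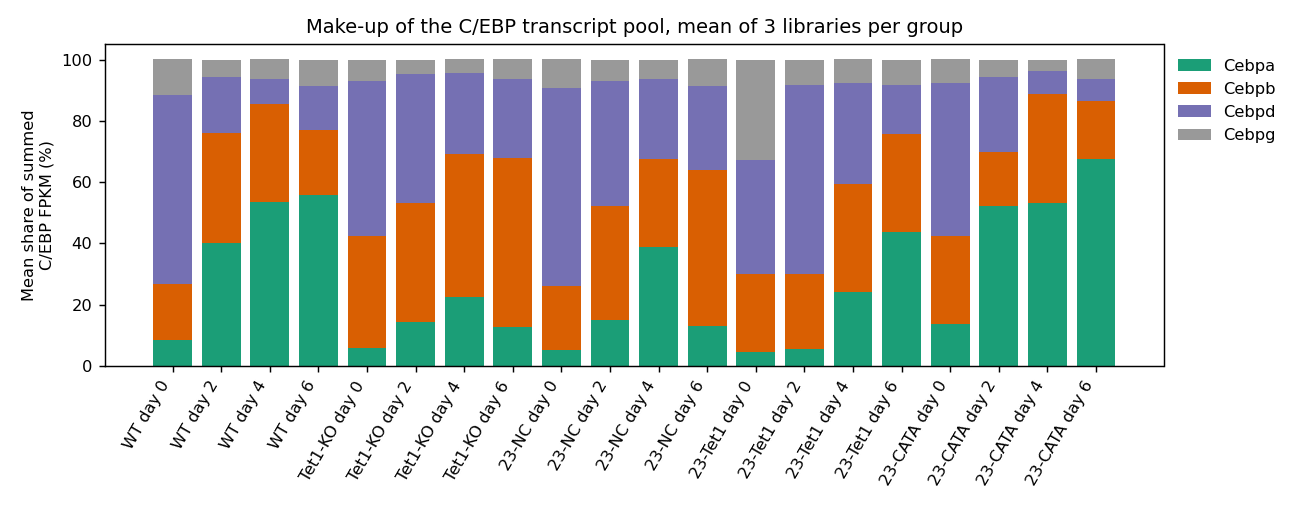
Mean share (in percent) of each C/EBP gene in the summed FPKM of the 4 genes, for the 20 groups of 3 libraries, stacked to 100%. Cebpd leads at day 0 in 5 of 5 populations, and Cebpa takes 55.7% of the sum in WT and 67.4% in 23-CATA at day 6.

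The 2 relatives outside the member list behaved differently from each other. Cebpe was listed at 0 in 52 of 60 libraries, did not exceed 0.17 FPKM and was not tested. Ddit3 rose in WT from 67.8 to 83.9 FPKM at day 0 to 169 to 179 FPKM at day 2 (1.61 ± 0.29, limma adjusted p = 0.00105) and from 216 to 287 FPKM at day 4 to 413 to 808 FPKM at day 6 (1.09 ± 0.29, limma adjusted p = 0.00321). Tet1-KO cells held more of it at day 0 (134 to 205 FPKM, 1.3 ± 0.29, limma adjusted p = 0.00687) and less at day 6 (155 to 367 FPKM, -0.96 ± 0.29, limma adjusted p = 0.00308, or -0.76 and 0.0147 without replicate 2). At day 4 Ddit3 was called higher in Tet1-KO (410 to 482 FPKM, 0.77 ± 0.29, limma adjusted p = 0.0465), a call lost in 15 of 24 fits with 1 library left out (0.0527 to 0.165). At day 2 it passed without Tet1-KO day 6 replicate 2 (0.55, 0.0135 against 0.0769). In 23-NC Ddit3 rose from 55.6 to 63.1 FPKM at day 4 to 337 to 392 FPKM at day 6 (2.53 ± 0.15, limma adjusted p = 1.24e-14), the step at which Cebpa fell. In 23-CATA Ddit3 was also higher at day 6 (196 to 219 FPKM) than at day 4 (84.6 to 115 FPKM). Cebpa was not called at that step in 23-CATA or in WT. At day 6 Ddit3 was lower than in 23-NC in 23-Tet1 (82.9 to 96.2 FPKM, -2.01 ± 0.15, limma adjusted p = 2.7e-12) and in 23-CATA (-0.80 ± 0.15, limma adjusted p = 3.48e-05).

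Genes known as adipocyte targets of C/EBP alpha were taken as a list of 25, of which 23 were tested. A pair of FPKM values for a list gene gives group means, with the earlier day, WT or 23-NC first unless the groups are named. In WT from day 0 to day 2, 20 rose and 1 fell, with a list median of 4.10 log2 units, where 62.1% of all genes were called. Fabp4, the fatty acid carrier, went from 77.3 to 53020 FPKM (10.04 ± 0.56, limma adjusted p = 1.16e-10) and Cidec, a lipid droplet protein, from 4.74 to 2187 FPKM (9.18 ± 0.64, limma adjusted p = 2.83e-09), while Irs1, an insulin receptor substrate, fell (-0.98 ± 0.19, limma adjusted p = 4.17e-06). In Tet1-KO against WT 1 gene was called at day 0, Fabp4 (higher, 2.03 ± 0.56, limma adjusted p = 0.0228). Then 12 genes were called at day 2, 13 at day 4 and 21 at day 6, each of them lower, with list medians of -1.85, -1.49 and -2.40, and 22.9%, 16% and 45.4% of all genes were called on those days. Without replicate 2 of the knockout these counts were 15, 18 and 19, with medians of -2.27, -2.05 and -1.84. The largest falls were Adipoq, the hormone adiponectin, from 1197 to 188 FPKM at day 2 (-3.15 ± 0.55), the lipase Lpl from 603 to 36.4 FPKM at day 4 (-4.38 ± 0.70) and the desaturase Scd1 from 1120 to 43.5 FPKM at day 6 (-4.74 ± 0.54).

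In the second table the targets of 23-Tet1 cells were mixed until day 4 and all higher at day 6. Against 23-NC the higher and lower targets numbered 3 and 7 on day 0, 7 and 9 on day 2, then 5 and 12 on day 4, with list medians of -0.12, -0.09 and -0.39. The shares of all genes called on those days were 61.3%, 63.9% and 56.9%. At day 6 all 23 were higher, with a median of 2.03 and 65% of all genes called, led by Retn (resistin, 11.3 against 265 FPKM, 4.40 ± 0.13, limma adjusted p = 3.1e-22) and Cfd (adipsin, 1.35 against 34.1 FPKM, 3.86 ± 0.13, limma adjusted p = 1.14e-20). In 23-CATA, 18, 19, 18 and 21 were higher and 1, 1, 4 and 1 lower at days 0, 2, 4 and 6, with medians of 1.83, 2.65, 1.25 and 2.32, against 43.3%, 65%, 68.7% and 74.4% of all genes called. Before induction Adipoq was at 0.39 FPKM in 23-NC and 186 FPKM in 23-CATA (6.98 ± 0.09, limma adjusted p = 1.66e-31). The 1 target that was lower in 23-CATA at day 6 was Agt, the angiotensin precursor.

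**Figure D5:**
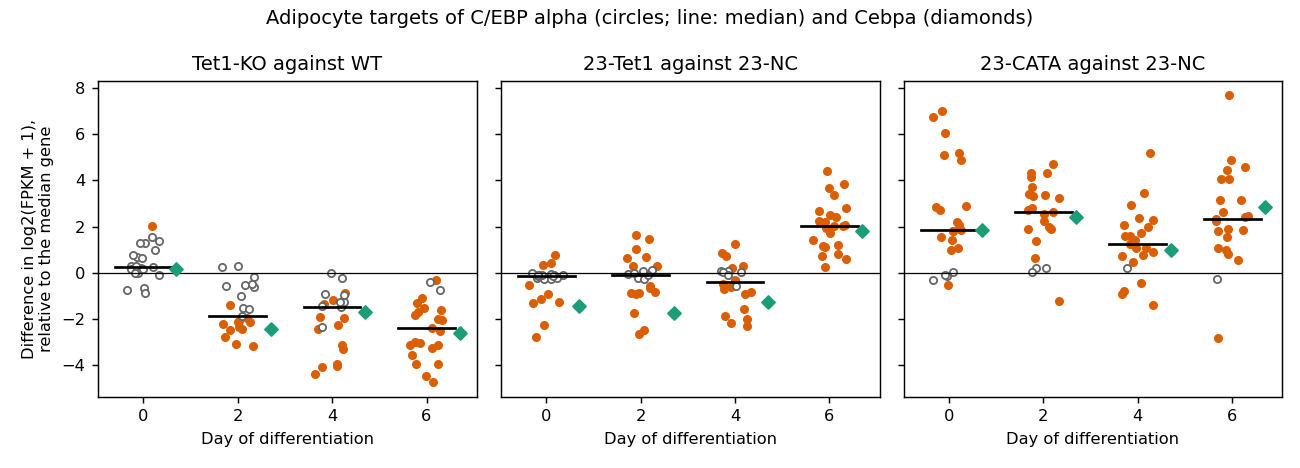
Difference of each of 23 adipocyte targets of C/EBP alpha (circles, filled orange where called, short line at the median) and of Cebpa itself (green diamonds) by day, in log2(FPKM + 1) relative to the median gene, for 3 pairs of populations. The target median is -2.40 in Tet1-KO against WT and 2.03 in 23-Tet1 against 23-NC at day 6, where Cebpa is at -2.58 and 1.81.

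Inflammatory and acute-phase targets of C/EBP beta and delta gave 15 tested genes in the first table. In WT from day 0 to day 2, where 62.1% of all genes were called, 3 rose and 9 fell (median -1.78). The acute-phase genes Hp (haptoglobin, 73.1 to 2933 FPKM, 5.70 ± 0.52) and Orm1 (8.13 to 198 FPKM, 4.87 ± 0.46) rose, and the chemokines Ccl2 (213 to 2.07 FPKM, -5.77 ± 0.81) and Ccl7 (154 to 5.37 FPKM, -4.25 ± 0.89) fell. In Tet1-KO at day 0, where Cebpb was higher than in WT and 16.8% of all genes were called, 3 were higher and 1 lower. Among the former was the cytokine Il6 (2.06 FPKM in WT and 42.5 FPKM in Tet1-KO, 3.94 ± 0.82, limma adjusted p = 0.0035). The one that was lower was the complement gene C3 (337 FPKM in WT and 118 FPKM in Tet1-KO, -1.43 ± 0.32, limma adjusted p = 0.00343). At day 2 in Tet1-KO, 9 were higher and 3 lower (median 1.28), against 22.9% of all genes called. At day 4, 6 were higher and 1 lower (median 1.00), against 16%. Cebpb was not called against WT on those days, and Cebpd was called higher at day 4. At day 6 in Tet1-KO, 8 were higher and 4 lower, the same counts as without replicate 2, against 45.4% of all genes called. Cxcl5 (2.47 against 602 FPKM, 6.14 ± 1.24) and Ccl2 (9.09 against 357 FPKM, 5.37 ± 0.81) were among the higher, and Hp (1336 against 187 FPKM, -2.79 ± 0.52) was among the lower.

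In 23-Tet1 at day 0, where Cebpd and Cebpa were below 23-NC, 12 of 18 tested targets of this kind were lower and 2 higher (median -2.12), where 61.3% of all genes were called. C3 was at 413 FPKM in 23-NC and 0.74 FPKM in 23-Tet1 (-7.99 ± 0.09, limma adjusted p = 5.39e-32), and Lcn2 (lipocalin 2) at 47.1 and 0.233 FPKM (-5.36 ± 0.13, limma adjusted p = 3.11e-24), while Ptgs2, the inducible cyclooxygenase, was higher (8.51 against 46.3 FPKM, 2.23 ± 0.11). In 23-CATA at day 0, 15 of 18 were higher (median 1.28), against 43.3% of all genes called. Hp was at 7.23 FPKM in 23-NC and 715 FPKM in 23-CATA (6.37 ± 0.15, limma adjusted p = 1.78e-24). At day 2 of 23-Tet1, 8 were higher and 7 lower (median -0.01), against 63.9% of all genes called. On that day Cebpd was called above 23-NC, and Cebpa and Cebpb below. At day 4 of 23-Tet1, 15 were higher and 3 lower, against 56.9%. Cebpa was then below 23-NC, and Cebpb and Cebpd were not called. Saa3 (serum amyloid A) was at 9.33 FPKM in 23-NC and 620 FPKM in 23-Tet1 (5.85 ± 0.26, limma adjusted p = 1.21e-17).

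Among 25 tested genes of the amino acid response, which ATF4 drives with C/EBP gamma and CHOP as partners, 13 rose in WT from day 0 to day 2 (median 1.16), where 62.1% of all genes were called, led by the aminotransferase Gpt2 (3.91 to 56.3 FPKM, 3.94 ± 0.42). In Tet1-KO against WT 5 were called at day 0, all higher, against 16.8% of all genes. At day 6, with 45.4% of all genes called, 1 was higher and 13 lower (median -0.76), and without replicate 2 it was 3 and 9 (median -0.37). Gpt2 (109 against 11.99 FPKM, -3.05 ± 0.42, limma adjusted p = 1.3e-05) and Psat1, a serine synthesis enzyme (183 against 32.2 FPKM, -2.56 ± 0.38, limma adjusted p = 2.42e-05), fell most. In 23-Tet1 at day 0, where Cebpg was above 23-NC, 21 of 25 were higher and 1 lower (median 0.98), against 61.3% of all genes called. Psat1 led (26.3 FPKM in 23-NC and 200 FPKM in 23-Tet1, 2.79 ± 0.08, limma adjusted p = 3.7e-23). In 23-CATA at day 0, where Cebpg was also above 23-NC, 10 were higher and 5 lower (median -0.08), against 43.3%. At day 6 in 23-Tet1, 7 were higher and 13 lower, against 65%.

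Of the 22 bZIP partners 18 were tested. In WT from day 0 to day 2, 3 rose and 10 fell (median -0.53), where 62.1% of all genes tested were called and 5144 of those fell against 2249 that rose, with the AP-1 genes Jun (167 to 9.18 FPKM, -3.66 ± 0.37) and Fos (360 to 28.0 FPKM, -3.27 ± 0.35) down and Atf5 (87.0 to 290 FPKM, 2.12 ± 0.26) up. In 23-CATA at day 0, 13 were higher than in 23-NC and 1 lower, against 43.3% of all genes called. Fosb was at 0.407 FPKM in 23-NC and 146 FPKM in 23-CATA (6.60 ± 0.10, limma adjusted p = 2.08e-29). Fos was at 13.9 FPKM in 23-NC and 557 FPKM in 23-CATA (5.13 ± 0.07, limma adjusted p = 9.91e-31). In Tet1-KO at day 6, where 45.4% of all genes were called, 1 was higher and 5 were lower, and without replicate 2 it was 3 and 4. Among those lower was Dbp, a clock output factor (47.4 against 10.3 FPKM, -2.49 ± 0.52, limma adjusted p = 0.000519).

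Regulators upstream of the C/EBP genes and proteins, 27 tested in the first table and 28 in the second, made up another list. In Tet1-KO at day 0, where 16.8% of all genes were called, 1 was higher and 11 were lower (median -0.38), including Zfp423, a preadipocyte factor (6.99 against 2.05 FPKM, -1.33 ± 0.23, limma adjusted p = 0.000382), and Egr2 (Krox20, an early inducer of Cebpb, 27.3 against 9.91 FPKM, -1.29 ± 0.26, limma adjusted p = 0.0014). The one that was higher was Trib1, which targets C/EBP alpha protein for degradation (3.79 against 8.47 FPKM, 1.07 ± 0.25, limma adjusted p = 0.0116). In 23-CATA at day 4, 2 were higher and 20 lower (median -0.41), against 68.7% of all genes called. Klf5 was at 11.4 FPKM in 23-NC and 2.56 FPKM in 23-CATA (-1.72 ± 0.14, limma adjusted p = 4.55e-12).

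Of 17 tested genes that respond to glucocorticoid or cAMP, the signals in the induction medium, 6 rose and 6 fell in WT by day 2, and 13 rose and 3 fell in 23-NC, where 62.1% and 59.5% of all genes were called. Fkbp5, a glucocorticoid receptor target, rose in both, from 3.13 to 148 FPKM in WT (5.57 ± 0.28, limma adjusted p = 4.27e-11) and from 3.00 to 396 FPKM in 23-NC (6.70 ± 0.06, limma adjusted p = 1.73e-34). At day 2 Fkbp5 was lower in Tet1-KO than in WT (27.6 FPKM, -2.55 ± 0.28, limma adjusted p = 2.69e-05) and lower in 23-Tet1 than in 23-NC (151 FPKM, -1.48 ± 0.06, limma adjusted p = 1.52e-17). The list as a whole was not lower. In Tet1-KO 5 of its genes were higher and 2 lower at day 2 (median 0.23), against 22.9% of all genes called. In 23-Tet1 7 were higher and 7 lower (median -0.09), against 63.9%. At day 6 it was at 11.2 FPKM in 23-CATA and 315 FPKM in 23-NC (-4.71 ± 0.06, limma adjusted p = 1.12e-30), where 11 of the list were lower and 4 higher, against 74.4% of all genes called.

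The genes whose log2 levels ran most like each member were ranked by the lower of Pearson's r over the 24 and over the 36 libraries, among 8996 genes with a group mean of at least 5 FPKM in each table. The libraries of a group and a time course share their source, so r is a description. Cebpa ran closest to Pparg, the gene of its partner PPAR gamma (r = 0.974 and 0.970), ahead of Mtus1, Apmap, Mfsd12 and Pfkfb3 (lower r of 0.954 to 0.938). Pparg went from 34.5 to 111.5 FPKM in WT and from 32.3 to 65.9 FPKM in Tet1-KO between days 0 and 2, and at day 6 it was lower in Tet1-KO (-1.10 ± 0.33, limma adjusted p = 0.0041), higher in 23-Tet1 than in 23-NC (0.80 ± 0.08) and higher still in 23-CATA (1.56 ± 0.08). Cebpb had no such close companion: its first was Hrct1 (0.782 and 0.758), followed by Gadd45g, Ogfod2, the droplet protein gene Plin2 and Bag1. Cebpd ran most like Znrf1 (0.823 and 0.822), Cyp1b1, the matrix protease gene Mmp2, Slc35a2 and Sdc1, and Cebpg most like Kpna3 (0.812 and 0.743), Ung, Dnajc21, Ak4 and Sgms2. Without Tet1-KO day 6 replicate 2, 3, 2, 4 and 5 of the first 5 remained for Cebpa, Cebpb, Cebpd and Cebpg. Among the members themselves Cebpa and Cebpg had r = 0.788 in the first table and 0.216 in the second, and Cebpa and Cebpb 0.313 and 0.652.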

How the data were processed

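Polyadenylated RNA was sequenced from 60 samples, grouped here by their titles. Per the submitters' processing notes, STAR 2.4.1a, RSEM and mm10 were used, and the gene annotation is not given in the sources used here. The authors deposited FPKM, to 2 decimals, as 2 tables (24 and 36 libraries), and no test crosses the tables.

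On the scale log2(FPKM + 1), a linear model per table holding every group was fitted with limma 3.58.1 under R 4.3.3 (moderated by eBayes with a mean trend). Genes had to reach 1 FPKM in 3 libraries (11911 and 12231 genes passed), and 37 comparisons were made. Tests are of the fitted change. From each printed change the median over the tested genes is subtracted, which lay between -0.392 (WT day 2 against day 0) and 0.292 (the Tet1-KO minus WT change to day 2). Members and lists were chosen with earlier results of these data known, and lists share genes such as Fos and Lcn2. The adipocyte markers are all in the list of C/EBP alpha targets. List genes were named by size of change, at most 2 rises and 2 falls per comparison, with groups that do not overlap and at least 5 FPKM in the higher group. The alternatives changed the pseudocount (0.1 FPKM), dropped the filter, rescaled by quantiles or by median ratios, used only the compared groups, added a replicate block, weighted libraries (the weights stopped before their tolerance), dropped the trend, or left out each library. Fits of 2 choices (compared groups with a block) and lists without replicate 2 of Tet1-KO were chosen after seeing the data.

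Replicate numbers were checked as pairs through the correlation of deviations from group means in 31 comparisons (-0.362 to 0.585). All 3 pairs exceeded 0.1 in WT day 4 against day 2 (0.153 to 0.199), Tet1-KO day 4 against day 2 (0.106, 0.582 and 0.585) and 23-CATA against 23-NC at day 4 (0.126, 0.172 and 0.367). These were treated as paired from the data, since the labels name no pairs. On simulated data, 54% of genes changed by 1 log2 unit and 92% of those changed by 2 were recovered for Tet1-KO against WT at day 2 (11911 genes), and 95% and 100% for 23-CATA against 23-NC at day 2 (12231 genes). Only 100 genes were changed at each size, and a gene's simulated spread was the same in every group. In the data 22.9% and 65% of genes were called in these comparisons, so recovery in the data may differ and was not measured.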

Additional observations from a re-analysis of the deposited data

Results flagged for a closer look

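The following results are differences between populations in the change of a member since day 0, tested as interactions with limma. Changes are given relative to the median gene ± SE. The Benjamini-Hochberg adjusted p over all genes tested is that of the fitted change, before the median is taken off. For Cebpa the change to day 6 was -2.76 ± 0.87 in Tet1-KO minus WT (adjusted p = 0.0291), a call that ended in 8 fits with 1 library left out (0.0501 to 0.0626), among them the one without Tet1-KO day 6 replicate 2 (-2.36, 0.0575). Against 23-NC the change of Cebpa to day 2 was -0.32 ± 0.12 in 23-Tet1 (adjusted p = 0.0237) and 0.58 ± 0.12 in 23-CATA (8e-04), and to day 6 it was 3.22 ± 0.12 (1.89e-19) and 1.02 ± 0.12 (8.03e-08). For the change of -0.32 the adjusted p rose to between 0.0518 and 0.078 without 23-NC day 0 replicate 2 or 3, 23-NC day 2 replicate 3, 23-Tet1 day 0 replicate 2 or 3, or 23-Tet1 day 2 replicate 3, to 0.174 with a pseudocount of 0.1 FPKM and to 0.0599 with the compared groups alone.

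For Cebpb the change to day 2 was -2.15 ± 0.54 in Tet1-KO minus WT (limma adjusted p = 0.0202), where Tet1-KO had begun higher. It ended without Tet1-KO day 0 replicate 2 (0.0509) or day 2 replicate 1 (0.0564). In 23-CATA minus 23-NC it was -1.45 ± 0.60 to day 2 (0.0332) and -1.89 ± 0.60 to day 6 (0.00488). The difference to day 2 ended without 23-NC day 0 replicate 2 (0.0785), 23-NC day 2 replicate 2 (0.0862), 23-CATA day 0 replicate 1 (0.0991) or 23-CATA day 2 replicate 2 (0.0712), and with no filter (0.0583).

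For Cebpd the change in 23-Tet1 minus 23-NC was 2.36 ± 0.17 to day 2 (limma adjusted p = 1.21e-12) and 1.45 ± 0.17 to day 6 (3.31e-08), and in 23-CATA minus 23-NC it was -1.60 ± 0.17 to day 6 (9.43e-10). For Cebpg it was -0.60 ± 0.09 to day 2 (3.22e-06) and -0.39 ± 0.09 to day 6 (0.000221) in 23-Tet1, and -0.15 ± 0.09 to day 6 in 23-CATA (0.0274). The last ended without 23-NC day 0 replicate 2 (0.0689), 23-NC day 6 replicate 3 (0.0668), 23-CATA day 0 replicate 1 (0.0521) or 23-CATA day 6 replicate 2 (0.0648), and with quantile normalisation (0.173) or median-ratio scaling (0.306).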

How the results depend on the processing

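No called member changed direction under any alternative run. Counts of calls that moved by over 1.5 times were in the first table. Of the Tet1-KO day steps (1 of 12 called), 0 were called with no filter and with median-ratio scaling, 2 with quantile normalisation, 7 with library weights, and 0 to 4 with 1 library left out (4 without day 6 replicate 2). Of the WT day steps (4 of 12), 8 were called with the compared groups alone and 8 with library weights. Of Tet1-KO against WT (8 of 16), 5 were called with the compared groups alone. Of the Tet1-KO minus WT differences in change (2 of 8), 4 were called with median-ratio scaling, 7 with library weights, and 1 to 5 with 1 library left out (5 without Tet1-KO day 2 replicate 2). These counts include libraries of groups outside a comparison, which enter through the shared spread. Apart from Tet1-KO day 6 replicate 2, leaving those out ended no member's call. It brought a member past the threshold in 11 of 780 fitted values of the first table and 18 of 2904 of the second (Cebpg in the Tet1-KO minus WT change to day 6 without Tet1-KO day 2 replicate 2, 0.0205, among them). Tet1-KO day 6 replicate 2 is not in those 780 values. Without it, members also passed in comparisons that do not hold its group. These were Cebpb in the WT steps to days 4 and 6 (0.0487 and 0.0151) and Cebpa and Cebpb from day 0 to day 2 in Tet1-KO (0.0406 and 0.00939). Against WT they were Cebpd at day 2 (0.0435), Cebpa at day 4 (0.0397) and the Cebpa interaction to day 2 (0.0281). The cause was not tested. With the replicate block in the fit of all groups, Cebpd in Tet1-KO against WT at day 2 (0.74, limma adjusted p = 0.0428) and Cebpg in the Tet1-KO minus WT change to day 6 (-0.59, 0.0496) passed, and no other member's call changed. The lowest member value rests on about 139 fragments.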
